A study of Mus musculus with 6 samples.

Results

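Expression of 10 genes of serine and glycine metabolism was examined in olfactory bulb cells after deletion of Sox9. The genes were chosen by symbol, for what their products do, but with earlier results of these data known. All 10 were found among the 24421 symbols listed in each of the 6 libraries. They are Phgdh, Psat1 and Psph for serine synthesis, Shmt1 and Shmt2 for the exchange between serine and glycine, Srr for D-serine, Gldc, Amt and Gcsh for the breakdown of glycine, and Slc6a9 for its uptake. All 10 passed the filter on low values (a mean normalized count of at least 1), which left 18413 genes to be tested.

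Cells make serine from phosphoglycerate, an intermediate of glycolysis, in 3 successive steps. Serine hydroxymethyltransferases turn serine into glycine and hand the released carbon to folate, and the glycine cleavage system in mitochondria breaks glycine down and hands over a further carbon. In the brain, astrocytes are known as a main site of serine synthesis and glycine breakdown, and glycine and D-serine act on receptors of neurons, among them the NMDA receptor, which needs either of them beside glutamate.

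The control group was 3 C57BL/6J mice, described in the study's methods as Sox9+/+, and the Sox9 KO group was 3 Sox9fl/fl mice, in which LoxP sites flank exons 2 and 3 of Sox9. All mice were adult males, and all had received AAV-GFAP-iCre-P2a-TurboRFP in the olfactory bulbs, so that the GFAP promoter drove Cre and a red fluorescent protein in both groups. Cells with TurboRFP were collected by sorting 4 weeks later, for 1 library per mouse, and per the study's methods the sorted cells were not sorted again to check purity, which was judged from cell type markers in the RNA-seq. The study's reporting summary states instead that littermates were allotted to the groups at random, so whether strain differed is not settled. Any difference in strain went together with the floxed allele, and the effects of these cannot be told apart. Values are normalized counts, that is, reads on a gene divided by 1 size factor per library, and a gene was called changed at a Benjamini-Hochberg adjusted p under 0.05 in limma with at least a 1.5-fold change.

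Each library held between 18242129 and 86906527 reads assigned to genes. Sox9 itself measured 5185, 6562 and 4921 normalized counts in the controls against 52.6, 64.3 and 57.7 after deletion, a log2 fold change (KO over control) of -6.54 ± 0.15 (SE, limma, adjusted p = 2.5e-09), which matches the labels. The markers of other cell types moved with the groups. All 10 astrocyte markers (Aldh1l1, Aqp4, Gfap and others) were called lower in KO, and their summed level fell from 509083-563280 normalized counts in the controls to 60977-70926. All 8 microglia markers (P2ry12, Tmem119, Cx3cr1 and others) were called higher, with sums of 134997-159876 in the controls and 469024-564793 in KO. Among the remaining lists, 9 of 10 neuronal markers were lower (19353-26411 against 2734-4871), as were 6 of 6 of oligodendrocytes (35718-60060 against 15352-24644), 3 of 3 of their precursors (1432-2230 against 138-298), 3 of 4 of mural cells (2298-2765 against 680-1033) and 3 of 4 of olfactory ensheathing cells (12627-19011 against 5100-7046). Border macrophage markers were mixed (3 lower and 1 higher of 5, 12994-19329 against 19614-21461), as were those of endothelial cells (2 lower and 1 higher of 4, 878-1311 against 1153-1424), and none of 4 lymphocyte markers was called in limma on the deposited scaling, edgeR or DESeq2 (1 of 4 lower in limma with equal totals; 26.3-58.3 against 20.5-48.6, with 1 of 4 at an unadjusted p under 0.05 in limma). No marker was at 0 in every library. In sorted bulk samples, fewer cells of a type and less RNA per cell cannot be told apart. The part of cell makeup in the results that follow was not tested, and the values relative to astrocyte markers are given after the changes themselves.

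Of the 10 genes, 8 were called lower in KO, 1 was called higher and 1 was not called. Over all genes tested, 28.8% were called lower and 22.2% higher, a split of 5299 against 4090 that was 6595 against 2627 with equal library totals after leaving out Rn45s, a ribosomal RNA gene that held 14.2% to 22.4% of the values, and 4122 against 5353 with quantile normalization. Every KO library lay below every control for 9 of the genes and above every control for 1, against 34.7% and 32.4% of all genes tested. The median log2 fold change was -1.76 for the 10 genes and -0.07 for all genes. Gldc and Slc6a9 fell the most, serine synthesis fell less, and the 2 hydroxymethyltransferases did not fall with the others: Shmt1 rose and Shmt2 did not pass the test.

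**Figure D1:**
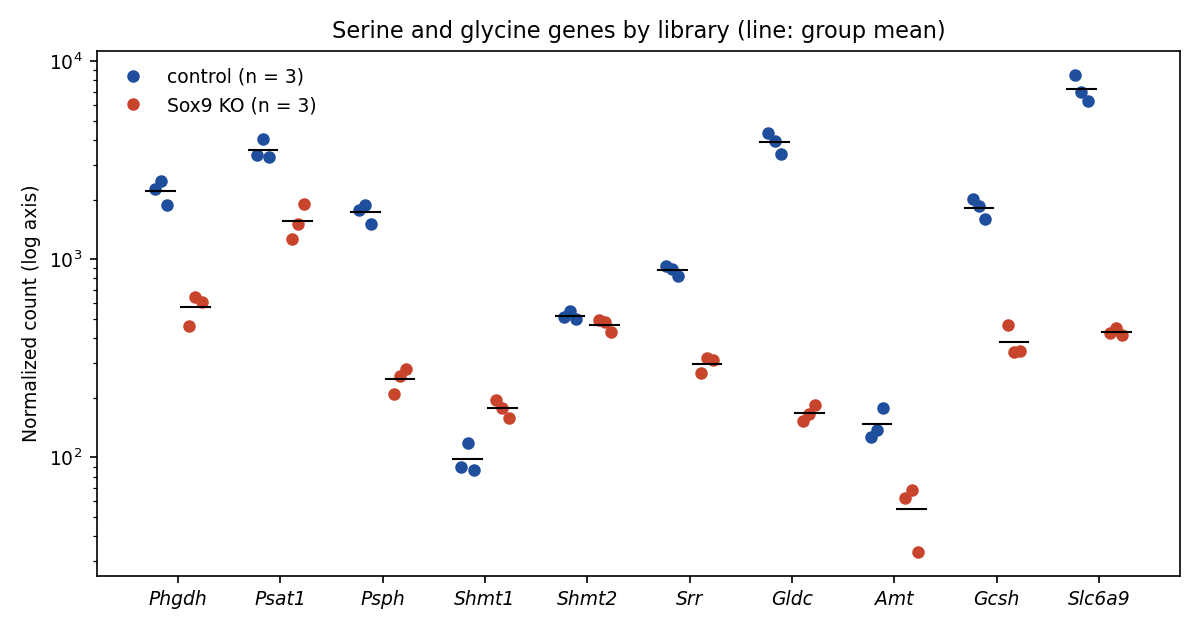
Normalized counts (log axis) of the 10 serine and glycine genes in the 3 control (blue) and 3 Sox9 KO (red) libraries, with a line at each group mean. The groups do not overlap for any of the genes, Gldc and Slc6a9 lie furthest apart, and Shmt1 is the gene with the KO libraries on top.

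The bases upstream of the RefSeq start sites are shown for 5 of the genes (build GRCm38.p6, written 5′ to 3′ on the strand of the gene, without bases that lie in annotated exons). Phgdh and Psat1 are shown as the start of serine synthesis, Gldc and Gcsh as the catalytic and carrier subunits of glycine cleavage, and Shmt2 as the gene that was not called. Capitals mark CCAAT on either strand (CCAAT or ATTGG), the letters of a common promoter element. These letters, and the sequences of Gldc, Gcsh and Shmt2, were chosen after values and sequences were seen.
Phgdh, chr3:98339991-98340219, minus strand: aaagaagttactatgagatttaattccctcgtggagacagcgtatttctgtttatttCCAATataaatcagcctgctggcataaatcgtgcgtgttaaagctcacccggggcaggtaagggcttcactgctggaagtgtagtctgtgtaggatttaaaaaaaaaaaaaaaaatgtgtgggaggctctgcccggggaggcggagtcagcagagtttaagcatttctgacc
Psat1, chr19:15925060-15925309, minus strand: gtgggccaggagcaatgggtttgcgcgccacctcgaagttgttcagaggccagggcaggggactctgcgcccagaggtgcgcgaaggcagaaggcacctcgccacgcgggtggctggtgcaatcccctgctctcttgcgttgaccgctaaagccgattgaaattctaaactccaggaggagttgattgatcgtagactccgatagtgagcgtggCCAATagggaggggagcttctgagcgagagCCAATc
Gldc, chr19:30175442-30175691, minus strand: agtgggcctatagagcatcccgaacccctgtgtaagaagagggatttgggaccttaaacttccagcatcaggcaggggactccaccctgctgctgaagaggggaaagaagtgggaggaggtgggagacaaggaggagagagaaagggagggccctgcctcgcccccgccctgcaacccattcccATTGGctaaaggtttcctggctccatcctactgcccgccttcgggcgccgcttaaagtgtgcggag
Gcsh, chr8:116993538-116993748, minus strand: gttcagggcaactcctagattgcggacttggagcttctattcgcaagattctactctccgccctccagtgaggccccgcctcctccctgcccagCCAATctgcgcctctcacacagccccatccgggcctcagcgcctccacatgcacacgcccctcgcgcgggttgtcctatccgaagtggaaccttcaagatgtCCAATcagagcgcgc
Shmt2, chr10:127522445-127522694, minus strand: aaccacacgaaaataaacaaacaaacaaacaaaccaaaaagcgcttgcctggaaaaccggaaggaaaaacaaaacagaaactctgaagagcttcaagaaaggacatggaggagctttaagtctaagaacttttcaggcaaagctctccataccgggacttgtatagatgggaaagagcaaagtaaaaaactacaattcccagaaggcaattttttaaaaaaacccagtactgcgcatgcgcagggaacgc

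In Psat1 the letters stand at 36 and 6 bases before the start site shown, in Gldc (as ATTGG) at 66, in Gcsh at 156 and 54 and in Phgdh at 193, counted to their first base. Psat1 has another RefSeq start site, not shown, whose window (chr19:15924623-15924872) did not hold these letters. Over the 250 bases upstream of each start site, 7 of the 13 windows of the 10 genes held CCAAT on either strand, 1 window for each of 7 genes, and 33.8% of all 32851 windows in the RefSeq table did. The 7 genes included Shmt1, which rose. TGATGNAA, the composite element of ATF4 and C/EBP proteins, was in none of the 13 windows and in 3.45% of all windows. Of the core letters that Sox proteins bind, ACAATG was in none of the 13 (10.7% of all windows) and ACAAAG was in 1, a window of Slc6a9 (16.5%), also on either strand. These are matches of letters only, and an absent match says nothing about binding.

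The 3 genes of serine synthesis all fell, each to a different extent. Phgdh (chromosome 3, 98313170 to 98339990), which encodes the dehydrogenase of the first step, measured 2258, 2495 and 1868 normalized counts in the controls and 461, 648 and 609 in KO. The lowest control was well above the highest KO library. The means were 2207 ± 317 and 573 ± 98.8 (SD, n = 3 in each group), which gives a log2 fold change of -1.95 ± 0.15 (SE, adjusted p = 1.8e-06 in limma). Psat1 (chromosome 19, 15904678 to 15947337), the aminotransferase of the second step, had the mildest fall of the 3. It measured 3364, 4031 and 3288 in the controls and 1259, 1513 and 1894 in KO, which left the KO mean 2.29-fold below the control mean. Its log2 fold change was -1.21 ± 0.15 (SE, limma, adjusted p = 4.4e-05), and the groups did not overlap. Psph (chromosome 5, 129765558 to 129787449), the phosphatase that releases serine in the last step, fell the most of the 3, by 6.91-fold in the means. Its values were 1781, 1870 and 1515 in the controls and 209, 258 and 280 in KO, with a log2 fold change of -2.79 ± 0.14 (SE, limma, adjusted p = 9.6e-08). Within each library, the log2 ratio of Phgdh over Psph per kilobase of exon was 1.15 ± 0.06 (SD, n = 3) in the controls and 1.99 ± 0.11 in KO. That of Phgdh over Psat1 went the other way, from 0.08 ± 0.12 to -0.66 ± 0.21. Neither ratio overlapped between the groups, and each had an exact permutation p of 0.1, the smallest that 3 against 3 libraries allow (0.1 also after Benjamini-Hochberg adjustment over the 5 ratios tested).

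Phgdh has an annotated pseudogene, Phgdh-ps1, and Psph shares 452 bases of exon with the antisense gene Cct6a. Whether strand was used in counting was not given in the methods or labels read here. Cct6a, a chaperonin subunit, measured 3594 ± 497 in the controls and 3379 ± 424 in KO (log2 fold change -0.09, 95% interval -0.37 to 0.19, adjusted p = 0.57 in limma).

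Shmt1 and Shmt2 did not follow the genes of synthesis. Shmt1 (chromosome 11, 60788104 to 60811718), the cytosolic hydroxymethyltransferase, was low in the controls, with 89.1, 118 and 86.7 normalized counts, and measured 195, 178 and 158 in KO. These values rest on 55 to 171 reads in the controls and 104 to 452 in KO. It was the only one of the 10 genes called higher, 1.81-fold in the means, with a log2 fold change of 0.86 ± 0.22 (SE, 95% interval 0.36 to 1.35, adjusted p = 0.0067 in limma). The rise depended on the scaling of the libraries: it was 0.53 (adjusted p = 0.056 in limma, not called) with equal totals after leaving out Rn45s and 1.55 (adjusted p = 0.00024) with quantile normalization. Smcr8, which shares 184 bases of exon with Shmt1 on the opposite strand, rose from 2966 ± 105 to 6098 ± 413 (log2 fold change 1.04, adjusted p = 2.7e-06 in limma). The part of those shared bases in the counts of Shmt1 was not tested.

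Shmt2 (chromosome 10, 127517123 to 127522444), the mitochondrial enzyme, had nearly the same level in both groups. It measured 510, 547 and 498 in the controls and 492, 480 and 428 in KO. The lowest control and the highest KO library lay only a few counts apart. Its log2 fold change was -0.15 ± 0.13 (SE, 95% interval -0.43 to 0.13, adjusted p = 0.32 in limma). On the deposited scaling, the interval reaches a fall of 0.43 on the log2 scale, short of the estimates of the 8 genes that fell. It does not cover the choice of scaling. The sign of Shmt2 turned with quantile normalization (0.11), and with equal totals, Rn45s left out, it was -0.48 (adjusted p = 0.0067 in limma), still under 1.5-fold. The log2 ratio of Shmt2 over Shmt1 per kilobase, which hardly depends on how a library is scaled, fell from 2.73 ± 0.17 (SD, n = 3) to 1.72 ± 0.05, or from 6.62 to 3.29 times on a linear scale. The ratio was lower in 3 of 3 KO libraries than in any control (exact permutation p = 0.1, the smallest possible).

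Srr (chromosome 11, 74906359 to 74925948) encodes serine racemase, which converts L-serine to D-serine. It fell 2.96-fold in the means, from 921, 893 and 826 normalized counts in the controls to 266, 316 and 310 in KO. The spread within each group was small beside the difference, and the log2 fold change was -1.56 ± 0.13 (SE, limma, adjusted p = 2.5e-06). Srr shares 1240 bases of exon with Tsr1 and 126 with Smg6 on the opposite strand. Tsr1, a ribosome assembly factor, was called lower too (737 ± 96.4 to 444 ± 16.8, log2 fold change -0.72, adjusted p = 0.00084 in limma), and Smg6, which acts in the decay of faulty messenger RNA, was not called (log2 fold change 0.24, adjusted p = 0.086). Reads of these neighbours cannot be told apart from those of Srr over the shared bases if strand was not used.

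The glycine cleavage system held the largest fall. Its subunits work in turn: Gldc removes the carboxyl group of glycine, Amt passes the remaining carbon to folate, Gcsh carries the intermediate on its lipoyl arm, and Dld restores that arm. Gldc (chromosome 19, 30098447 to 30175429) measured 4349, 3947 and 3379 in the controls and 152, 165 and 184 in KO. The KO mean was 4.29% of the control mean, a 23.3-fold fall, with a log2 fold change of -4.53 ± 0.13 (SE, limma, adjusted p = 5.2e-09). Only 0.983% of the 18413 genes tested had a lower log2 fold change. Gcsh (chromosome 8, 116981810 to 116993537) fell 4.77-fold, from 2006, 1864 and 1601 to 464, 340 and 343, and its groups did not overlap (log2 fold change -2.26 ± 0.15 SE, limma, adjusted p = 4.9e-07). Amt (chromosome 9, 108296853 to 108302302) was the least precise of the 10 genes. It measured 127, 138 and 178 in the controls and 62.5, 68.7 and 33.4 in KO, the last from 22 reads. Its log2 fold change was -1.46 ± 0.32 (SE, 95% interval -2.17 to -0.75, adjusted p = 0.0025 in limma), and with quantile normalization it was -0.69 (adjusted p = 0.094), no longer called.

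Dld, which also serves other enzyme complexes of mitochondria, is no member of the group of 10. It measured 4099, 4562 and 4226 in the controls and 3267, 2709 and 3401 in KO, with no overlap. Its log2 fold change of -0.46 (adjusted p = 0.0030 in limma) was under 1.5-fold and was not called. It was called lower with equal totals (-0.71, adjusted p = 0.00023 in limma), with equal totals without Rn45s (-0.79) and with quantile normalization (-0.76). Within libraries, the subunits specific to glycine cleavage also shifted against each other. Per kilobase, the log2 ratio of Gldc over Gcsh went from -0.86 ± 0.02 (SD, n = 3) in the controls to -3.13 ± 0.37 in KO, and that of Gldc over Amt from 3.40 ± 0.43 to 0.33 ± 0.67. By the mean log2 ratio, Gldc was thus 10.5 times as abundant per kilobase as Amt in the controls and 1.25 times in KO. The single KO libraries had log2 ratios of -0.05, -0.07 and 1.10, the last in the library where Amt had 22 reads. The ratios of Gldc over Gcsh and of Gldc over Amt were lower in 3 of 3 KO libraries than in any control. Each had an exact permutation p of 0.1, the smallest possible. How often other pairs of genes differ in this way was not counted.

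Slc6a9 (chromosome 4, 117834506 to 117875198) encodes the glycine transporter GlyT1, which clears glycine from the extracellular space. It had 8543, 6993 and 6251 normalized counts in the controls and 427, 450 and 413 in KO. All KO libraries lay close together and far below the controls, at 5.92% of their mean. The log2 fold change was -4.06 ± 0.12 (SE, limma, adjusted p = 6.3e-09), the second largest fall of the 10 genes. Slc6a9 shares 1429 bases of exon with Ccdc24 and 46 with B4galt2 on the opposite strand. Both neighbours were far lower in level (46.5 ± 17.8 and 378 ± 41.9 in the controls) and were called lower as well (5.99 ± 3.98 and 33.9 ± 7.93 in KO).

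**Figure D2:**
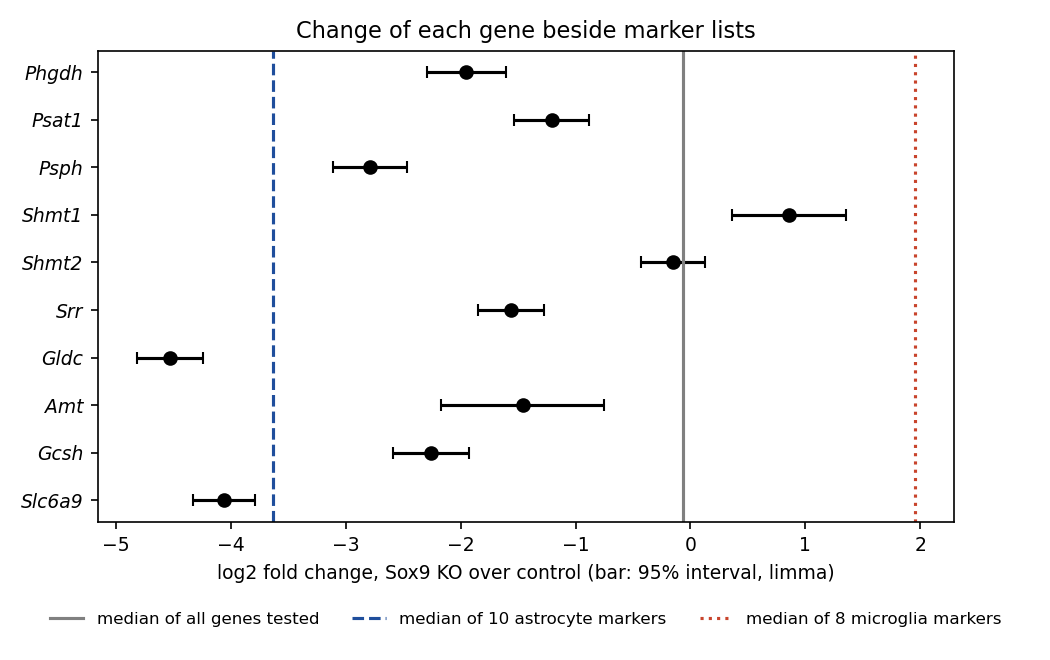
Log2 fold change (KO over control) of each gene with its 95% interval from limma, beside the median of all genes tested (-0.07, grey), of 10 astrocyte markers (-3.63, dashed) and of 8 microglia markers (1.96, dotted). Gldc and Slc6a9 lie below the astrocyte median, 7 other genes lie between it and the median of all genes, of which Shmt2 has an interval that spans 0, and Shmt1 lies above.

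The astrocyte markers themselves had a median log2 fold change of -3.63, so each gene was also set against them within its own library. The mean log2 level of the 10 markers was 14.62 ± 0.04 (SD, n = 3) in the controls and 11.06 ± 0.09 in KO. The marker mean thus changed by -3.56, and a gene with a log2 fold change above that is on average higher relative to the markers. This holds for most genes: only 3.83% of all genes tested had a lower log2 fold change than S100b, a marker at -3.57. Relative to the marker mean, 8 of the 10 genes were higher in every KO library than in every control and 2 were lower. The same count was not made over all genes. Since most genes are higher on this scale, being higher does not set these genes apart. Of the 10 genes, the 2 that were lower are Gldc, by a difference of -0.97, and Slc6a9, by -0.51. Psph was higher by 0.77, Gcsh by 1.3 and Phgdh by 1.61. Srr (1.99), Amt (2.10) and Psat1 (2.35) followed, and Shmt2 (3.41) and Shmt1 (4.41) stood furthest from the markers. For each gene the exact permutation p was 0.1, the smallest possible. The markers are not of 1 kind: Glul fell by 1.07 on the log2 scale and Fgfr3 by 5.25, so Gldc and Slc6a9 lie within the range of the single markers. Cells other than astrocytes can also express these genes, and how much of each gene's RNA came from astrocytes was not tested.

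**Figure D3:**
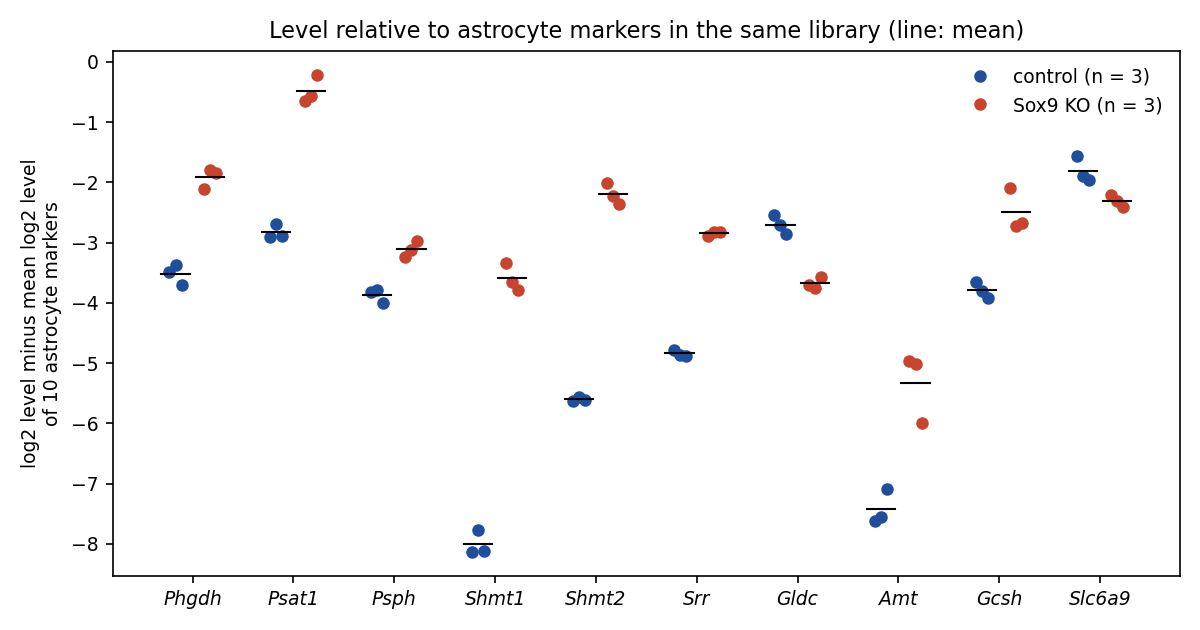
Log2 level of each gene minus the mean log2 level of 10 astrocyte markers in the same library, for 3 control (blue) and 3 Sox9 KO (red) libraries, with a line at each group mean. Gldc and Slc6a9 are lower in KO on this scale, the other 8 genes are higher, and Shmt1 moves the most (from -8.01 to -3.59).

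The order of the levels changed between the groups. Per kilobase of exon, the controls had Slc6a9 first (1413 ± 227 normalized counts per kilobase, SD, n = 3), then Gcsh (1155 ± 130), Phgdh (888 ± 127), Psat1 (837 ± 96.2), Gldc (639 ± 80.0), Psph (398 ± 42.7), Srr (193 ± 10.7), Shmt2 (167 ± 8.22), Amt (60.6 ± 11) and Shmt1 (25.2 ± 4.44). The ranges of Slc6a9 and Gcsh overlapped, as did those of Phgdh and Psat1, and the other neighbours in this order did not overlap. In KO, Psat1 came first (366 ± 75.2), followed by Gcsh (242 ± 44.5), Phgdh (230 ± 39.8), Shmt2 (150 ± 10.9), Slc6a9 (83.7 ± 3.66), Srr (65.2 ± 5.99), Psph (57.5 ± 8.29), Shmt1 (45.6 ± 4.72), Gldc (27.4 ± 2.63) and Amt (22.5 ± 7.73). Here the ranges of Gcsh and Phgdh overlapped, as did those of Srr and Psph, Psph and Shmt1, and Gldc and Amt. Slc6a9 thus moved from place 1 to 5 and Gldc from 5 to 9, while Shmt2 moved from 8 to 4. Summed by role, normalized counts of the 3 synthesis genes went from a mean of 7490 to 2377, those of Gldc, Amt and Gcsh from 5864 to 604, and those of Shmt1 and Shmt2 from 616 to 644.

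Genes around the 10 were taken from 6 lists with 81 genes, of which 73 were tested. Together 32 were called lower and 15 higher, with a median log2 fold change of -0.66, beside 28.8% lower and 22.2% higher over all genes tested. With equal totals, the higher calls numbered 8, or 7 with Rn45s left out. In the folate cycle, which takes up the carbon from serine and glycine, 4 of 16 tested genes were lower and 4 higher (median 0.03), shares near those of all genes, and 3 were lower and 9 higher with quantile normalization. Aldh1l1, which removes the formyl group from folate and is also 1 of the 10 astrocyte markers, fell from 4697 ± 300 to 379 ± 149 (log2 fold change -3.69, adjusted p = 2.0e-07 in limma). Mthfd1, the cytosolic enzyme that converts folate-bound carbon between its forms, fell from 1682 ± 47.0 to 616 ± 70.4. Mtr, the methionine synthase, rose from 881 ± 67.7 to 2280 ± 105 (log2 fold change 1.37). The count of lower genes in this list fell from 4 to 2 without control replicate 2 and likewise without control replicate 3.

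Genes of transsulfuration, the route from homocysteine and serine to cysteine, were lower in KO. Of 9 tested genes of the methionine cycle and transsulfuration, 5 were lower and 1 higher (median -0.92), and the higher call was lost with equal totals. Over all genes tested, 28.8% were called lower and 22.2% higher on the deposited scaling. Cbs, which joins serine to homocysteine, went from 2974 ± 544 to 122 ± 39.7 (log2 fold change -4.63, adjusted p = 6.2e-08 in limma), and Cth, which releases cysteine in the next step, from 421 ± 45.5 to 10.2 ± 3.95 (-5.29, adjusted p = 2.6e-07). Ahcyl1, named for its likeness to the hydrolase of adenosylhomocysteine, fell by 1.44 on the log2 scale. Mat2a, which makes S-adenosylmethionine, had a log2 fold change of 0.35 (adjusted p = 0.010 in limma), under 1.5-fold and not called, and its sign turned with quantile normalization (-0.21).

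Genes for the breakdown and other uses of serine and glycine were mixed, with 8 of 14 tested lower and 3 higher (median -1.72), or 9 and 1 with equal totals without Rn45s. The shares over all genes tested were 28.8% lower and 22.2% higher on the deposited scaling. Pipox, an oxidase of sarcosine and pipecolic acid, fell from 505 ± 98.1 to 18.6 ± 7.72 (log2 fold change -4.75) and Sdsl, a relative of serine dehydratase, from 181 ± 27.3 to 5.69 ± 4.77 (-5.02). Among those that rose were Gatm, which uses glycine for creatine (6825 ± 658 to 12348 ± 2868, log2 fold change 0.83, not called at 0.51 with equal totals without Rn45s), and Sptlc2, a subunit of the enzyme that joins serine to a fatty acid at the start of sphingolipid synthesis (1963 ± 74.9 to 4875 ± 207, 1.31).

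Carriers split by gene. Of 14 tested, 5 were lower and 3 higher (median -0.13), also near the shares of all genes, and 1 was higher with equal totals. Slc7a10, the Asc-1 exchanger of D-serine and glycine, had the largest fall of any gene in these lists, from 2071, 1760 and 1687 normalized counts in the controls to 9.93, 20.1 and 16.7 in KO (log2 fold change -6.84, adjusted p = 1.8e-08 in limma). Slc1a4, the ASCT1 carrier of serine, fell from 9175 ± 1113 to 479 ± 57.0 (-4.26), and Slc38a3, a glutamine carrier of the SNAT family, from 12765 ± 2032 to 517 ± 17.2 (-4.61). Slc38a2, another SNAT carrier, rose from 5607 ± 969 to 8378 ± 379 (0.59, adjusted p = 0.0014 in limma), close to the 1.5-fold limit, and was not called with equal totals (0.35).

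The receptor counts stand beside 28.8% lower and 22.2% higher over all genes tested on the deposited scaling. Of the 8 receptor genes, 5 were lower and none was called higher in limma on the deposited scaling, edgeR or DESeq2 (median -2.02, with 0 higher also at an unadjusted p under 0.05 in limma), and 4 were lower and 1 higher in limma with quantile normalization. They included Glrb, the beta subunit of the glycine receptor (2381 ± 275 to 295 ± 84.9, log2 fold change -3.04), Grin1, the obligatory subunit of NMDA receptors (483 ± 38.1 to 71.5 ± 30.7, -2.82), Grin3a, a glycine-binding NMDA receptor subunit (4571 ± 817 to 1126 ± 371, -2.05), and Glra4, an alpha subunit of the glycine receptor (155 ± 14.6 to 38.5 ± 7.36, -1.99). Neuronal markers were lower in the same libraries, 9 of 10 called, and their part in these receptor values was not tested. In the list of ATF4, a factor known to drive genes of serine synthesis, and the amino acid response, 5 of 12 genes were lower and 4 higher (median -0.32), or 5 and 2 with equal totals. Here too the shares over all genes were 28.8% and 22.2% on the deposited scaling. Atf4 itself rose from 3515 ± 186 to 5920 ± 149 (log2 fold change 0.75, adjusted p = 2.1e-05 in limma, not called at 0.51 with equal totals) and Atf3, a stress-induced factor, from 7222 ± 1060 to 40685 ± 7045 (2.49). Sesn2, a leucine sensor, fell from 1566 ± 26.0 to 253 ± 68.4 (-2.66), and Slc3a2, the heavy chain of several amino acid carriers, was not called (0.15, adjusted p = 0.27 in limma, and -0.10 with equal totals).

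**Figure D4:**
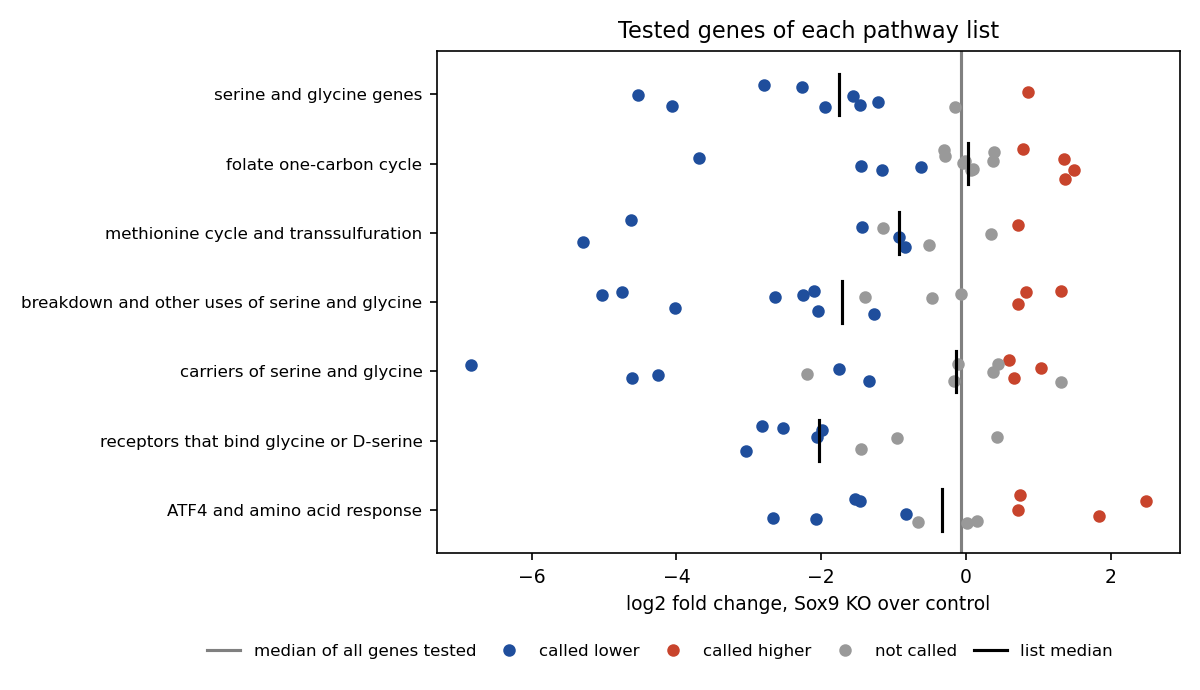
Log2 fold change (KO over control) of every tested gene in the group of 10 and in 6 lists around it, coloured by call (blue lower, red higher, grey not called), with a black bar at each list's median and a grey line at the median of all genes tested. The group of 10 and the receptors have the lowest medians (-1.76 and -2.02), and every list except the receptors holds calls in both directions, the group of 10 included.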

How the data were processed

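RNA from sorted TurboRFP-positive olfactory bulb cells of 3 control and 3 Sox9 KO mice was sequenced after amplification from small amounts of total RNA. Per the methods of the authors, STAR 2.5.0a aligned the reads to mm10, reads were counted per gene, and DESeq2 1.20.0 normalized the counts. The annotation and the use of strand are not given in the sources used for this work. The deposited signal, 1 value per gene and library, is named RPM, but 100% of the values in each library were whole multiples of 1 step within 0.01 read, that is, read counts divided by 1 size factor (0.634 to 2.53). A test for normalized values had been planned, and it was kept. Symbols that a spreadsheet had turned into dates (27 of 24421) were left as they are.

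Genes with a mean of at least 1 (18413) were tested on log2(normalized count + 1) in limma 3.58.1 (R 4.3.3), with a variance trend, two-sided, group only, and Benjamini-Hochberg adjustment over all of them. Fold changes on that scale understate those of low genes. The recovered reads were also tested with edgeR 4.0.16 and DESeq2 1.42.0, and the scripts were tested on simulated data. Ratios within a library used the same pseudocount and exact permutation tests over libraries, two-sided, which cannot go below 0.1 for 3 against 3. Overlap between the groups was not counted for ratios of other gene pairs. The mice were separate animals, so the limma tests set the group difference against the spread between mice. That spread is estimated in part from all genes tested. Without the variance trend, the adjusted p of Phgdh in limma was 0.00063 rather than 1.8e-06.

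Exon lengths, coordinates and overlaps are from GENCODE M21 (GRCm38, mm10), all 10 genes being matched by symbol, and upstream sequences are from RefSeq (GRCm38.p6). Named genes are Sox9, the 10 genes, Dld and, in each of the 6 lists, the 3 with the highest level per kilobase and the 2 called genes with the largest change. One gene that this rule names is not reported here. Genes that share exon bases with a member, Glul, Fgfr3, Cx3cr1 and the other markers cited as examples, and Rn45s were picked with their values in view. The genes and lists were chosen with earlier results of these data known. Alternatives to the pseudocount, filter, scaling, variance trend, fold limit and tool, a replicate block, and leaving out each library were tried.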

Additional observations from a re-analysis of the deposited data

How the results depend on the processing

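Of the 10 genes, the 7 other than Shmt1, Shmt2 and Amt kept their direction and call under every alternative and without any 1 library, and no gene's call changed without any 1 library. With equal library totals after leaving out Rn45s (chosen after seeing the data), Shmt1 was 0.53 (adjusted p = 0.056 in limma), 0 of the 10 genes and 2627 genes in all were called higher, and the lists around them held 7 higher calls, or 8 with Rn45s kept in. With a 2-fold limit these counts were 0, 2514 and 7, since fewer genes pass it. With quantile normalization Shmt2 was 0.11 and Amt -0.69 (adjusted p = 0.094 in limma). These scalings moved the median log2 fold change of all genes by -0.31 (equal totals without Rn45s), -0.23 (equal totals) and 0.26 (quantile). Between 7 and 8 of the 10 genes were called lower in every alternative, and 8 were lower and 1 higher in both edgeR and DESeq2.

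The labels number the libraries in each group but give no pairing, and libraries with the same number did not deviate together (correlations of -0.05, -0.01 and -0.01). With the replicate number as a block, 5227 genes were called lower and 4048 higher, with 8 and 1 of the 10 genes. The precision of Amt and Shmt1 is limited by their 22 to 452 reads per library.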
